A study of Homo sapiens with 3 samples.

Results

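The genes described here are the tetraspanins, the syndecans and the ESCRT machinery, the set of membrane and endosomal proteins that work with the adaptor syntenin (gene SDCBP) in making exosomes. The rule reads gene symbols: every gene whose symbol starts with TSPAN, CHMP or VPS37, and 22 genes listed by symbol. It has no threshold on a measured value, but the set was proposed with results of these data known. The annotation holds 59 such protein-coding genes. Of these, 49 have at least 1 mRNA (RefSeq NM) row, 74 rows in all, among 11487 genes and 17868 matched NM rows. The other 10, which are SDC2, TSPAN7, TSPAN8, TSPAN10, TSPAN11, TSPAN16, TSPAN18, TSPAN19, TSPAN32 and VPS37D, were not analysed here.

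The samples were SW480, a long-established cell line from a human adenocarcinoma of the colon, transduced with short hairpin RNA (shRNA). There were 2 libraries of cells given control shRNA (shControl) and 1 library of cells given shRNA against the RNA-binding protein RBMS1 (shRBMS1), all from RNA taken 48 hours after transduction and depleted of ribosomal RNA. Whether the 2 controls share 1 hairpin is not stated. The knockdown is 1 library labelled shRBMS1, so an effect of its shRNA on other genes and an effect of less RBMS1 cannot be told apart. Every log2 value below is the fold change of the knockdown over control that the authors' deposited table gives for a transcript, or the median computed here over the NM rows of a gene. Only this 1 ratio per transcript was used, with no level per library, so no value has an error, no test was possible, and the depth behind each is unknown. Fewer cells expressing a gene and less RNA per cell cannot be told apart in such bulk RNA.

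Tetraspanins span the membrane 4 times and gather integrins, proteases and each other into patches. Syndecans are transmembrane proteoglycans whose heparan sulfate chains bind growth factors and matrix, and whose short cytoplasmic tails end in a motif for the PDZ domains of syntenin. Syntenin also binds ALIX (gene PDCD6IP) and the tetraspanin CD63. Through ALIX it reaches the ESCRT complexes, which bud and cut vesicles into the endosome: ESCRT-0 gathers ubiquitinated cargo, ESCRT-I and ESCRT-II bend the membrane, the CHMP proteins of ESCRT-III polymerise at the neck, and the ATPase VPS4 takes them apart. RBMS1 binds A+U-rich RNA, and AUAUA, written ATATA in DNA letters, is among the sequences known for it.

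The targeted gene RBMS1 was at −1.49 (35.6% of control) by the median of its rows in the authors' deposited table, and SDCBP was at −0.58 (67.0%). RBMS1 itself was used to set which way the ratio runs, so its sign checks nothing. All 7 epithelial markers looked for (EPCAM, KRT8, KRT18, KRT19, CDH1, CDX2, VIL1) have a row, with values from −2.33 to 0.10, whereas values for the fibroblast and endothelial markers and for 3 of 4 leukocyte markers were not analysed here. The remaining leukocyte marker, CD48, was at 3.15 with an unknown level.

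The 3′ UTR sites shown next are the ATATA copies of the 2 syndecans that hold any, because SDC4 was the lowest syndecan. Beside them are single copies from TSPAN2 and VTA1, the 2 members with most copies, which lay at 0.058 and 0.27. Of the 12 members with 4 or more copies, 10 lay above 0 (83.3%, against 51.2% of all genes with 4 or more). STAM, with 11 copies, was at −0.63 and SDC4, with 4, at −1.54. Of the 10, VPS36 and CHMP3 were at −0.16 and −0.0030 in the row with their longest linked 3′ UTR. This class was set after the values were seen and was not tested. Sequences are 25 bases of the annotated 3′ UTR (GENCODE 29, GRCh38), 5′ to 3′ on the transcript, with the ATATA in capitals. SDC4 holds 4 copies, SDC1 holds 1, TSPAN2 holds 35 and VTA1 holds 32. 
SDC4, chr20:45326731-45326755, minus strand: tctctgtggtATATAcctggggcca
SDC4, chr20:45326181-45326205, minus strand: agatcccaaaATATAatgaagggga
SDC4, chr20:45326136-45326160, minus strand: tgttcttataATATAttattattct
SDC4, chr20:45326096-45326120, minus strand: aaatagataaATATAtttttttcag
SDC1, chr2:20201491-20201515, minus strand: ataaactttaATATAaagtagtcct
TSPAN2, chr1:115049589-115049613, minus strand: gtttctccaaATATAaggaaaaaag
VTA1, chr6:142218846-142218870, plus strand: gtctctgagtATATAgggctgatgt

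By median, the syndecans lay lowest of the 7 role groups. SDC4, SDC3 and SDC1 were all below 0, with a median of −0.96 (51.5% of control), where the median of all 11487 genes was 0.0034 and the quartiles were −0.26 and 0.22. SDC4, the widely expressed syndecan of focal adhesions (chromosome 20, 45325288 to 45348424, hg38), was at −1.54 in the authors' deposited table, which is 34.4% of control. Its percentile, the percent of all genes at or below it, was 1.88, and it was close to the value of RBMS1 itself. SDC3, a syndecan with a long ectodomain known best from nerve and muscle (chromosome 1, 30869466 to 30909735), stood at −0.96 (51.5% of control, percentile 4.44), as listed in the authors' deposited table. SDC1, the main syndecan of epithelia (chromosome 2, 20200797 to 20225475), stood at −0.48, or 71.8% of control, as the median of 2 rows. Those rows of SDC1 stood apart in the authors' deposited table, at −0.90 for NM_001006946 and −0.057 for NM_002997. Both encode the same coding exons in the linked annotation and start at different positions, so the gap lies between transcripts that share their coding sequence. SDC4 and SDC3 each rest on 1 row.

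SDC4 was the only syndecan at or beyond 1 on the log2 scale, the size used here for counting. Over all genes, 4.06% were lower by at least 1 and 3.62% were higher by at least 1. Among the 49 members, 2 were lower by at least 1, SDC4 and the tetraspanin TSPAN3, and 0 were higher by at least 1. The share of lower members, 4.08%, was near that of all genes. As a whole the members were centred near 0, at a median of −0.047, with 29 of 49 below 0 (59.2%, against 49.6% of all genes) and 40 of 49 within 0.5 of 0 (81.6%, against 77.4%).

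**Figure D1:**
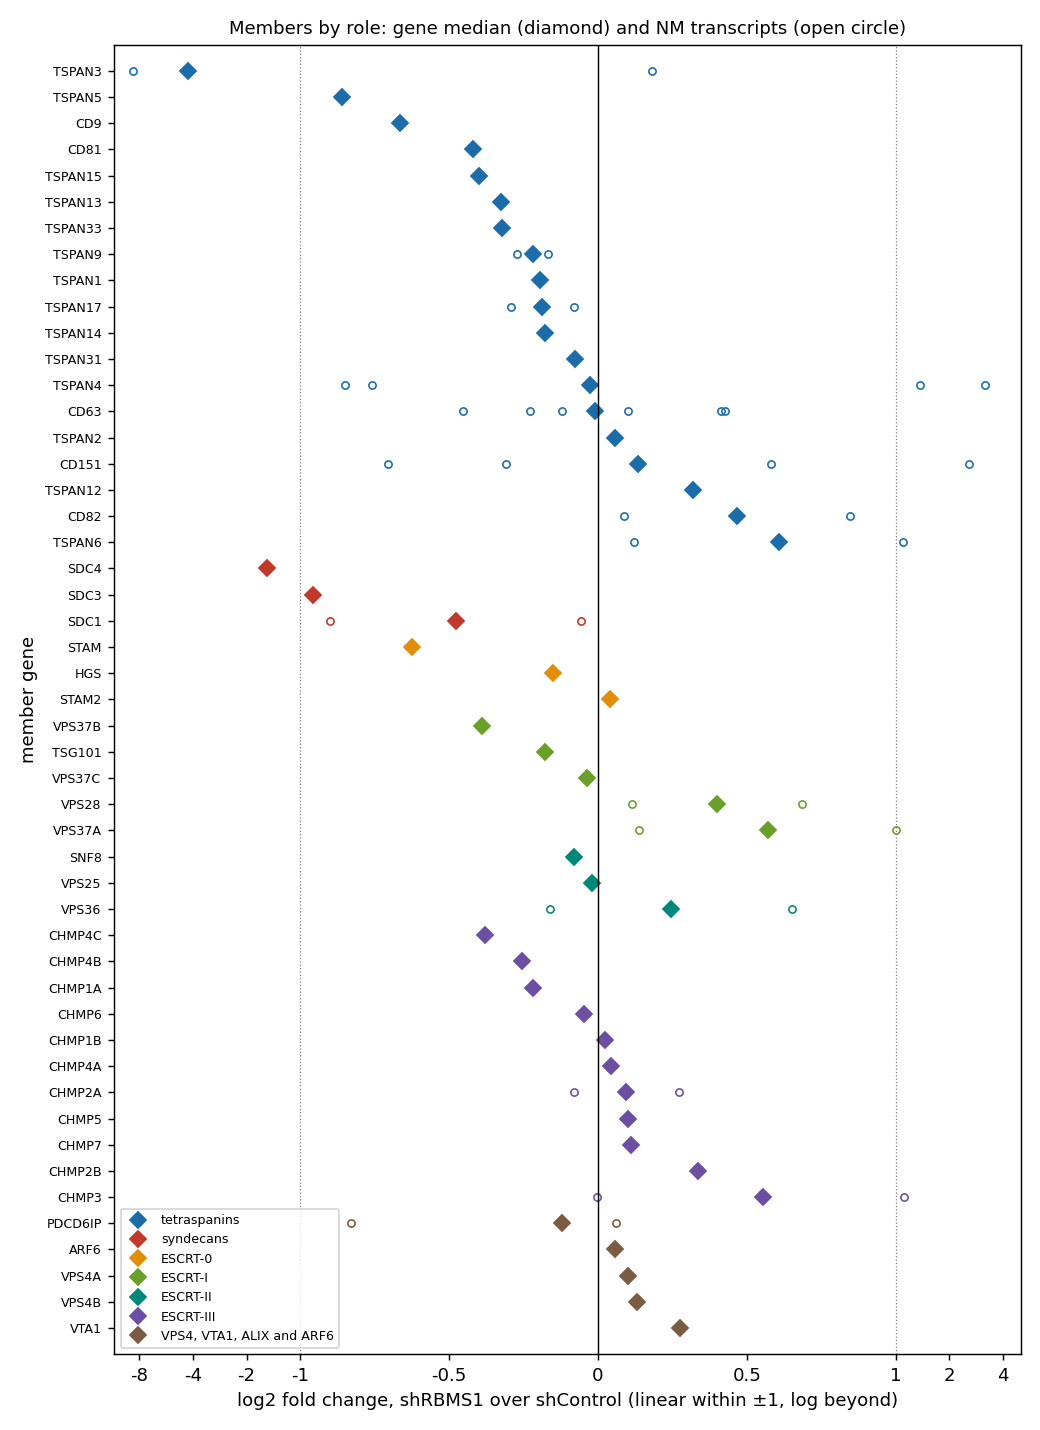
Log2 fold change of shRBMS1 over shControl (horizontal, linear within 1 of 0 and logarithmic beyond) for the 49 member genes (vertical), coloured by role; diamonds are gene medians, open circles the NM transcripts of genes with several, dotted lines mark 1 in each direction. The 3 syndecans lie left of 0, from −1.54 to −0.48, while the genes of ESCRT-III and those below them cluster around 0.

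The promoters of the syndecans are printed because these 3 genes lay lower together. They are RefSeq sequences of GRCh38.p14, the 250 bases before the start that the table lists, 5′ to 3′ on the gene's strand. Capitals mark matches to the motifs spelled out after them. 
SDC4, chr20:45348425-45348674, minus strand: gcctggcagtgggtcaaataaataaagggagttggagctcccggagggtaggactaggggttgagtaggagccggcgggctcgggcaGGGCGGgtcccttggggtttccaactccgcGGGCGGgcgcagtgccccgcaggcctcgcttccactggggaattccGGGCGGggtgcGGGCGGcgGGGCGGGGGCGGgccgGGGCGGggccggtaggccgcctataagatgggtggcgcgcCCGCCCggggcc
SDC3, chr1:30908759-30909008, minus strand: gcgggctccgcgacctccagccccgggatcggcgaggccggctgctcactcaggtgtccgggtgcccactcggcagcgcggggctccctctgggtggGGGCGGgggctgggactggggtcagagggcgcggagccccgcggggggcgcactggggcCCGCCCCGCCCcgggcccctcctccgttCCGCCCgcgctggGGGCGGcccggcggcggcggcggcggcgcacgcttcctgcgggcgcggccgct
SDC1, chr2:20225476-20225725, minus strand: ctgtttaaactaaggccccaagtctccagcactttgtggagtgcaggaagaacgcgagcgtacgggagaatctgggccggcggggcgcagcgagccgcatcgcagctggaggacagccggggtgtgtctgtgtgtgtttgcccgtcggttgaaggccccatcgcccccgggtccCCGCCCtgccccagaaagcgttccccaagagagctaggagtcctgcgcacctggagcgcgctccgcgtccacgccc

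Both strands, from 250 bases before to 50 after the start, were searched for the TATA box as TATAAA, the CCAAT box by those letters, the GC box as GGGCGG, the AP-1 site as TGANTCA, the cAMP response element as TGACGTCA and the E-box as CACGTG. Overlapping matches were counted each. Every match in the syndecan promoters was a GC box: SDC4 held 8, SDC3 held 6, of which 5 are in the bases printed, and SDC1 held 1. For SDC3 the listed start lies inside the annotated gene. GC boxes stood in 26 of the 38 member promoters found and in 45.0% of all 35116 promoters. That larger set is not limited to the 11487 genes with a value, so the shares come from unlike sets. Of the 38 member promoters, 0 held a TATA box, 10 a CCAAT box, 1 an AP-1 site, 2 a cAMP response element and 5 an E-box. The other shares over all promoters were 11.5% for the TATA box, 34.6% for the CCAAT box, 7.71% for the AP-1 site, 1.85% for the cAMP response element and 7.26% for the E-box. TSPAN5 held 10 GC boxes, and TSPAN14 and VPS4A, nearer 0, held 6 each. A match is a string of letters in this window and no measured binding.

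Tetraspanins lay slightly below 0 as a group. Their 19 measured genes had a median of −0.19 (87.8% of control), and 14 of them were below 0 (73.7%, against 49.6% of all genes). The lower values lay mainly in the 11 tetraspanins with 1 row, at a median of −0.32 with 9 below 0. The 8 with several rows had a median of −0.019, with 5 below 0. At or under −0.5 were 3 of the 19, where 13.3% of all genes were, and at or above 0.5 was 1, TSPAN6, where 9.3% of all genes were. These counts are near those shares. Among those with 1 row the lowest was TSPAN5, a partner of the protease ADAM10, whose row in the authors' deposited table reads −0.86 (55.1% of control, percentile 5.53). CD9, a tetraspanin used as an exosome marker and known in cell fusion, was at −0.67 (63.1%, percentile 8.98) there. CD81, another exosome marker, was at −0.42 (74.8%). TSPAN15, which also directs ADAM10, was at −0.40 (75.8%) in the authors' deposited table.

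A middle group of tetraspanins stood between −0.33 and −0.077. In the authors' deposited table TSPAN13 was at −0.33 and TSPAN33, an ADAM10 partner of blood cells and epithelia, was at −0.32. TSPAN1 was at −0.19, TSPAN14, again an ADAM10 partner, at −0.18, and TSPAN31 at −0.077 in the authors' deposited table. TSPAN31 overlaps the cell cycle kinase gene CDK4 on chromosome 12 (57745039 to 57750219 against 57747727 to 57752310), named here after its value of −0.33 was seen. The sources used here do not give how reads in the shared stretch were divided, nor whether counting used strand. By medians of 2 rows, TSPAN9 was at −0.22 and TSPAN17, an ADAM10 partner too, at −0.19. In both genes the rows stood less than 0.25 apart.

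The TspanC8 tetraspanins, which carry ADAM10 out of the endoplasmic reticulum and set its substrates, were all below 0: TSPAN5, TSPAN15, TSPAN33, TSPAN17 and TSPAN14, the 5 of 6 with a value, ranged from −0.86 to −0.18 around a median of −0.32. Over all genes 49.6% were below 0, and of these 5 only TSPAN17 has more than 1 row. For ADAM10 itself the authors' deposited table lists 0.0042, and for the related sheddase ADAM17 it lists 0.12.

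At the upper end stood TSPAN6, known to bind syntenin, at 0.61 (153% of control) by the median of 2 rows. CD82, a tetraspanin first described as a suppressor of metastasis, was at 0.47 (138%) by the same measure. TSPAN12, a co-receptor in Norrin signalling, was at 0.32 and TSPAN2, known from oligodendrocytes, at 0.058 in the authors' deposited table. CD63, the lysosomal tetraspanin that binds syntenin, had 6 rows from −0.45 to 0.43 and a median of −0.010. Thus the classic exosome markers did not share a value: CD9 and CD81 stood at −0.67 and −0.42, CD63 at −0.010.

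Transcripts of the same tetraspanin could lie far apart, and TSPAN3 did so most. The gene value of TSPAN3 was −4.24, but this joins NM_005724 at 0.18 with NM_001168412 at −8.66 in the authors' deposited table. The transcript at 0.18 is linked to a model of 6467 bases with a 3′ UTR of 5431 bases, and the transcript at −8.66 to a model of 1530 bases with a shorter coding sequence of 570 bases against 762. TSPAN3 was the only member with a row beyond 6 in either direction, of 302 such NM rows in the table. The authors' deposited table gives no abundance beside the ratio, so whether either arm held many or few copies of the short transcript is unknown.

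TSPAN4, a tetraspanin of migrasomes, the vesicles that migrating cells leave on retraction fibres, had 5 rows with a median of −0.028. In the authors' deposited table they stood at −0.85, −0.76, −0.028, 1.37 and 3.17. All 5 share their coding exons and each starts at a position of its own. CD151, a laminin-binding integrin partner and neighbour of TSPAN4 on chromosome 11 (832952 to 838831 against 842852 to 867111), had 4 rows with a median of 0.14. For CD151 the authors' deposited table lists −0.70, −0.31, 0.58 and 2.58. They too share their coding exons, and the 4 rows link to only 2 models in GENCODE 29. For both genes, rows of opposite sign thus have the same coding exons in the linked models. Rows of 1 gene can share bases, and how reads were divided among them is not stated in the labels.

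Of the 15 members with several NM rows, 4 had rows at least 1 apart: TSPAN3, TSPAN4, CD151 and CHMP3. Over all genes with several NM rows 48.4% had rows at least 1 apart. Rows of both signs were found in 8 of the 15 members (53.3%) and in 65.9% of all such genes. Counted by transcript, 2 of 74 member rows were lower by at least 1, against 7.93% of all NM rows. The 2 rows are those of SDC4 and of the short TSPAN3 transcript. Higher by at least 1 were 6 of 74, against 7.77% of all NM rows. Of these 6, TSPAN4 holds 2, and CD151, TSPAN6, CHMP3 and VPS37A hold 1 each.

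**Figure D2:**
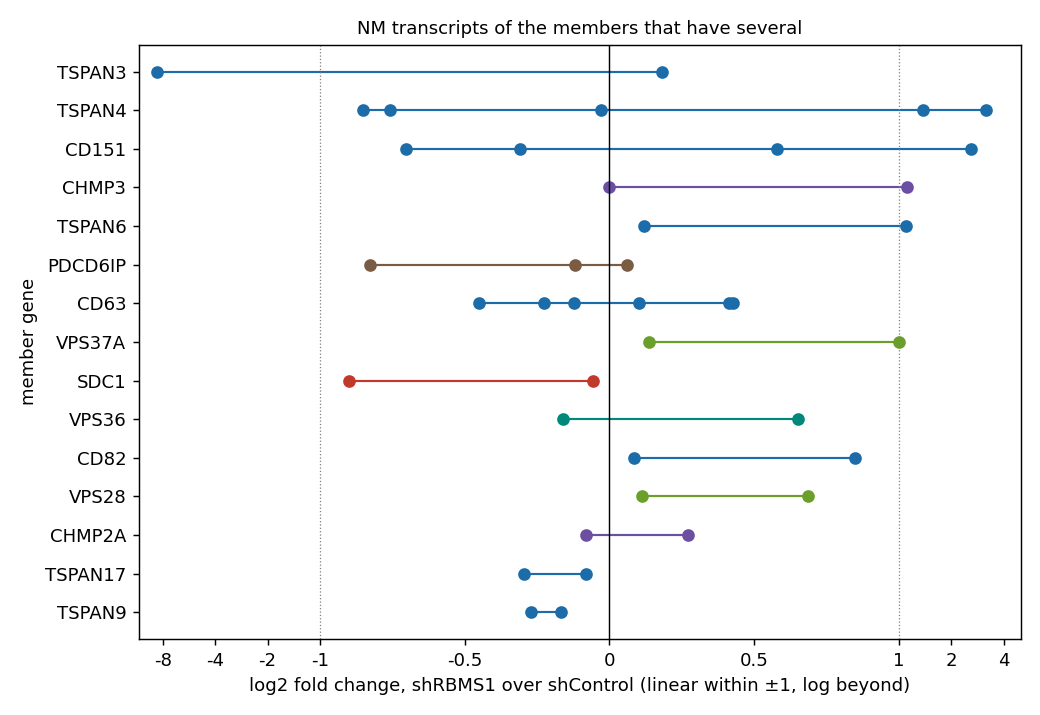
Log2 fold change (horizontal, linear within 1 of 0 and logarithmic beyond) of each NM transcript, 1 point each, of the 15 members that have several (vertical, ordered by range), with a line from lowest to highest. TSPAN3 spans −8.66 to 0.18 and TSPAN4 −0.85 to 3.17, whereas TSPAN9 and TSPAN17 stay within 0.25.

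ESCRT genes stood close to 0. The 26 genes of ESCRT-0 to ESCRT-III with VPS4A, VPS4B, VTA1 and PDCD6IP had a median of 0.033 (102% of control), 12 were below 0, and 23 lay within 0.5 of 0 (88.5%, against 77.4% of all genes). No gene of these was at or beyond 1 in either direction. The lowest was STAM, which binds ubiquitinated receptors in ESCRT-0, with −0.63 (64.8%) as listed in the authors' deposited table. Its partner HGS, the core of ESCRT-0, was at −0.15 and its paralogue STAM2 at 0.042 there.

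Within ESCRT-I, TSG101, the subunit that recognises ubiquitin and viral late domains, had −0.18 in the authors' deposited table. The VPS37 subunits, of which each ESCRT-I complex holds a single kind, stood apart from each other: VPS37B at −0.39 and VPS37C at −0.037 in the authors' deposited table, and VPS37A at 0.57 as a median of 2 rows. Those rows of VPS37A were at 0.14 for the longer model and 1.01 for the shorter one in the authors' deposited table. VPS28, the subunit that contacts ESCRT-II, was at 0.40, with rows at 0.11 and 0.69. In ESCRT-II, SNF8 was at −0.080 and VPS25 at −0.020 in the authors' deposited table, and VPS36, which contacts ESCRT-I and lipid, was at 0.25 from rows at −0.16 and 0.65.

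The 11 ESCRT-III genes, all CHMPs, ran from −0.38 to 0.55 around a median of 0.045, with 4 below 0. CHMP4 proteins form the main filament: CHMP4C, which also acts in the abscission checkpoint, was at −0.38, CHMP4B at −0.26 and CHMP4A at 0.045 in the authors' deposited table. CHMP1A was at −0.22 and its paralogue CHMP1B at 0.025 there. CHMP6, which links ESCRT-II to the filament, was at −0.047 and CHMP7, known from resealing of the nuclear envelope, at 0.11 in the authors' deposited table. CHMP5, which binds VTA1, was at 0.10 and CHMP2B at 0.33 in the authors' deposited table. CHMP2A was at 0.096 as a median of rows at −0.080 and 0.27. CHMP3 was highest at 0.55, from a full-length row at −0.0030 and a row with a shorter coding sequence at 1.11 in the authors' deposited table, so its height comes from the second.

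The genes that act on or beside the filament lay between −0.12 and 0.27. The authors' deposited table puts the ATPases VPS4A and VPS4B at 0.10 and 0.13 and their activator VTA1 at 0.27. ARF6, a small GTPase that works with syntenin in exosome formation, was at 0.056 there. PDCD6IP (ALIX), the bridge from syntenin to ESCRT-III, had a median of −0.12 from rows at −0.83, −0.12 and 0.060 in the authors' deposited table. Of its linked rows, that at −0.83 has the longer coding sequence, 2622 bases against 2607.

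Neighbouring genes were taken from lists by function. Over all genes, 49.6% were below 0, 4.06% were lower by at least 1 and 3.62% were higher by at least 1. Genes of ESCRT and exosomes beyond the members, 24 with a value, had a median of 0.0084, and 11 were below 0. The 24 include ALG2, at 0.018, which encodes an enzyme of protein glycosylation and no ESCRT protein. At or beyond 1 stood 1 lower and 0 higher gene. The lowest was PTPN23, an ALIX-like phosphatase, listed in the authors' deposited table with −1.13, and the highest was UBAP1, an ESCRT-I subunit, at 0.96 over 4 rows from −0.83 to 2.08. Syntenin with its lipid enzymes and small GTPases, 30 genes, had a median of −0.079 with 16 below 0 (53.3%). In this list 1 gene was lower (3.33%) and 3 were higher (10%) by at least 1. At its ends were the recycling GTPase RAB11B at −1.03 and PSD, an exchange factor for ARF6, at 3.39 in the authors' deposited table. Other sorting and recycling genes of the endosome, 33 in number, had a median of −0.043. Below 0 were 18, lower by at least 1 was 1, and higher by at least 1 were 0. Their lowest was WASHC3, a WASH complex subunit, at −1.18 from rows at −2.37 and 0.0064, and their highest VPS26A, a retromer subunit, at 0.89 from rows at −0.35 and 2.14 in the authors' deposited table. The medians of these endosomal lists therefore lay within 0.1 of 0, as did those of ESCRT-I to ESCRT-III.

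Partners of tetraspanins, 24 genes, had a median of −0.28 (82.5% of control), with 19 below 0, 1 lower and 0 higher by at least 1. The share below 0 was 79.2%, against 49.6% of all genes. CLDN7, a claudin that joins EPCAM and tetraspanins, was lowest at −1.32 from rows at −1.34 and −1.29, and the integrin subunit ITGB1 highest at 0.18 in the authors' deposited table. Partners of the syndecan tail and of syndecans in adhesion, 21 genes and most of them cytoplasmic proteins, had a median of −0.22. Below 0 were 16 (76.2%, against 49.6% of all genes), and 1 was lower and 1 higher by at least 1 (4.76% each). Their lowest and highest were receptor tyrosine kinases, IGF1R at −3.51 from rows at −7.36 and 0.35, and FGFR4 at 2.53 from rows at 1.19 and 3.87 in the authors' deposited table.

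Enzymes that build and trim heparan sulfate, the chains that syndecans carry, stood near 0: 22 genes had a median of −0.017 with 12 below 0, 1 lower and 0 higher by at least 1. SULF2, which removes sulfate from the chains, was lowest at −4.95 from rows at −9.87 and −0.034, and SLC35B2, the transporter of the sulfate donor, highest at 0.66 from 4 rows between −1.48 and 1.92 in the authors' deposited table. Glypicans and other proteoglycans of the membrane or matrix had 7 genes with a value and a median of −0.26. Below 0 were 4 (57.1%, against 49.6% of all genes). Lower by at least 1 were 2 (28.6%, against 4.06%) and higher were 0 (against 3.62%). Of the 7, TGFBR3 (betaglycan) was lowest at −3.78 from rows at −9.35 and 1.80. The co-receptor NRP1 was highest at 0.27 over 3 rows in the authors' deposited table. The other gene lower by at least 1 was GPC4, a glypican, at −1.16 from 1 row in the authors' deposited table. Of tetraspanins that bear other names, only ROM1 had a value, 0.32.

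**Figure D3:**
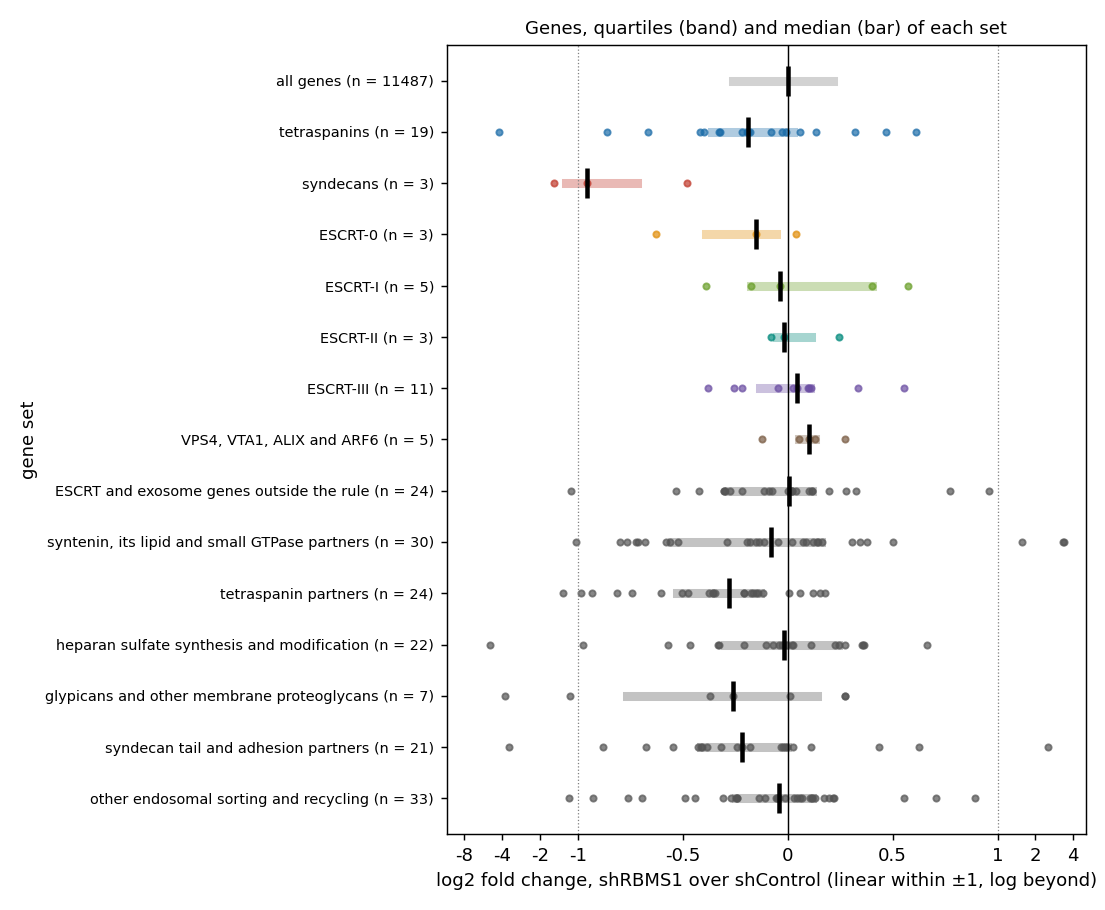
Log2 fold change (horizontal, linear within 1 of 0 and logarithmic beyond) of all genes, the 7 role groups of the members and 7 lists of neighbouring genes (vertical, with the number of genes); points are genes, bands run from the lower to the upper quartile, and black bars are medians. The syndecan median of −0.96 stands apart from the others, which lie between −0.28 and 0.10.

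Transcript composition moved with the values over all genes and was therefore set beside those of the members. Genes were put in 10 equal bins by GC content of the linked transcript. The bin of lowest GC had a median of 0.13, the seventh −0.092 and the highest −0.034. In 10 such bins by transcript length, the shortest had a median of 0.076 and the longest −0.12. Members were set beside the GC bins alone. SDC4, with 48.8% GC, stood in a bin whose median was 0.0082. SDC3, with 68.5%, and SDC1, with 59.7%, stood in bins at −0.034 and −0.085. The model linked to SDC3 has 1580 bases, 1329 of them coding and only 76 of them 3′ UTR. Its GC content and bin therefore rest mostly on coding sequence. All 3 syndecans lay below the median of their own bin, with a median difference of −0.92 from it. Among tetraspanins with a linked transcript, 11 of 17 lay below the median of their own bin and the median difference was −0.14. For ESCRT-III this was 6 of 11, with a median difference of −0.013. The 3 genes of ESCRT-0 also all lay below the median of their own bin, with a median difference of −0.12. ESCRT-I had 2 of 5 below, ESCRT-II 1 of 3, and VPS4 with VTA1, ALIX and ARF6 2 of 5. Over all members it was 28 of 47. Whether GC content or length has a part in the values was not tested.

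**Figure D4:**
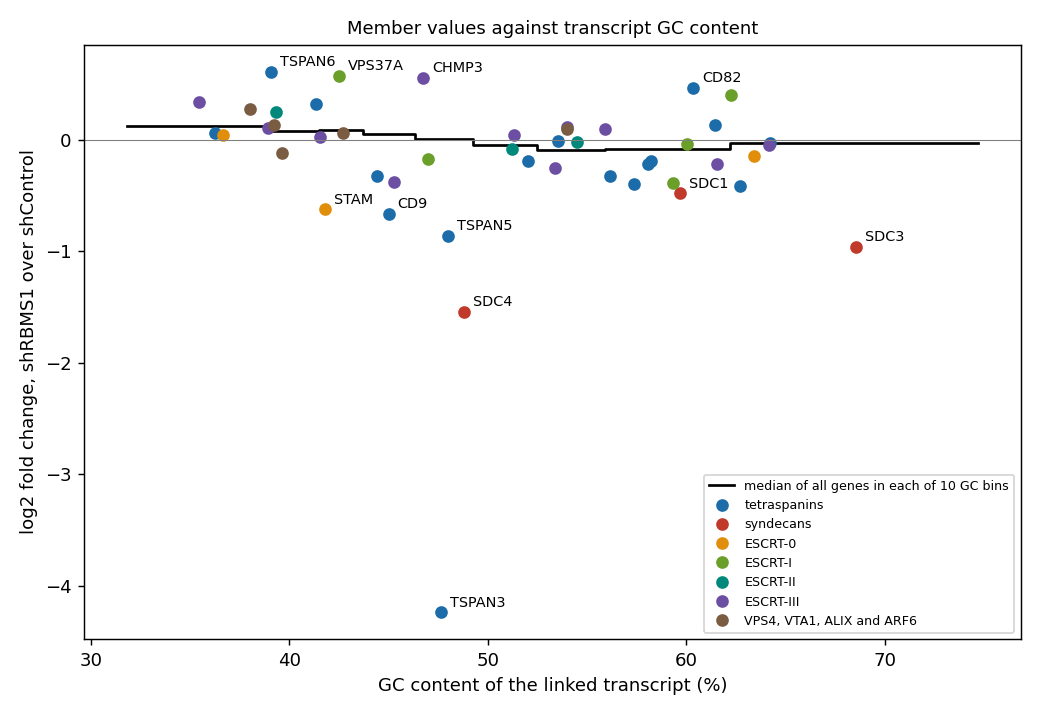
Log2 fold change of each member (vertical) against the GC content in percent of its linked transcript (horizontal), coloured by role; the black line is the median of all genes in each of 10 GC bins. TSPAN3, whose value of −4.24 rests on 1 of its 2 transcripts, lies farthest below the line, and SDC4, SDC3, TSPAN5, CD9 and STAM also lie below it. The line runs between 0.13 and −0.092.

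Copies of ATATA were counted in each linked 3′ UTR of a gene, and the highest count was taken. For every member this was the count in its longest linked 3′ UTR. At least 1 copy stood in 24 of the 47 members with a linked 3′ UTR (51.1%) and in 58.7% of 11272 genes. Members with a copy had a median of 0.049 and members without a copy −0.15, where all genes had 0.013 and −0.0089. Above 0 were 6 of the 23 members with 0 copies (26.1%), 4 of the 12 with 1 to 3 (33.3%) and 10 of the 12 with 4 or more (83.3%). Over all genes the shares above 0 were 49.0%, 51.8% and 51.2%. These classes were set after the values were seen and no test was made, so the order among the members is a description. The members richest in copies were TSPAN2 with 35, VTA1 with 32, STAM2 with 23 and VPS37A with 13, and their gene values were 0.058, 0.27, 0.042 and 0.57. For VPS37A the row that carries the copies was itself at 0.14, since the row at 1.01 links to a 3′ UTR of 66 bases with 0 copies. For VPS36 and CHMP3, both counted above 0 with 4 or more copies, the row with the longest linked 3′ UTR was at −0.16 and −0.0030. Copies may overlap in AT repeats: merged into separate runs, TSPAN2 held 18, VTA1 25, STAM2 15 and VPS37A 10. STAM, with 11 copies in 4 runs, was at −0.63, and VPS36, also with 11, at 0.25 by its gene median. SDC4, whose 4 copies are printed above, was at −1.54, while ARF6 and CHMP2B, also with 4, were at 0.056 and 0.33. TSPAN5 and CD9, among the lowest members, held 0 copies in 3′ UTRs of 2155 and 431 bases. For SDC3 the linked model ends 76 bases after its stop codon, so its count of 0 covers only that stretch. The 6 members with 11 or more copies have 3′ UTRs of 1134 to 6046 bases, and the parts of length, GC content and copies were not tested.

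**Figure D5:**
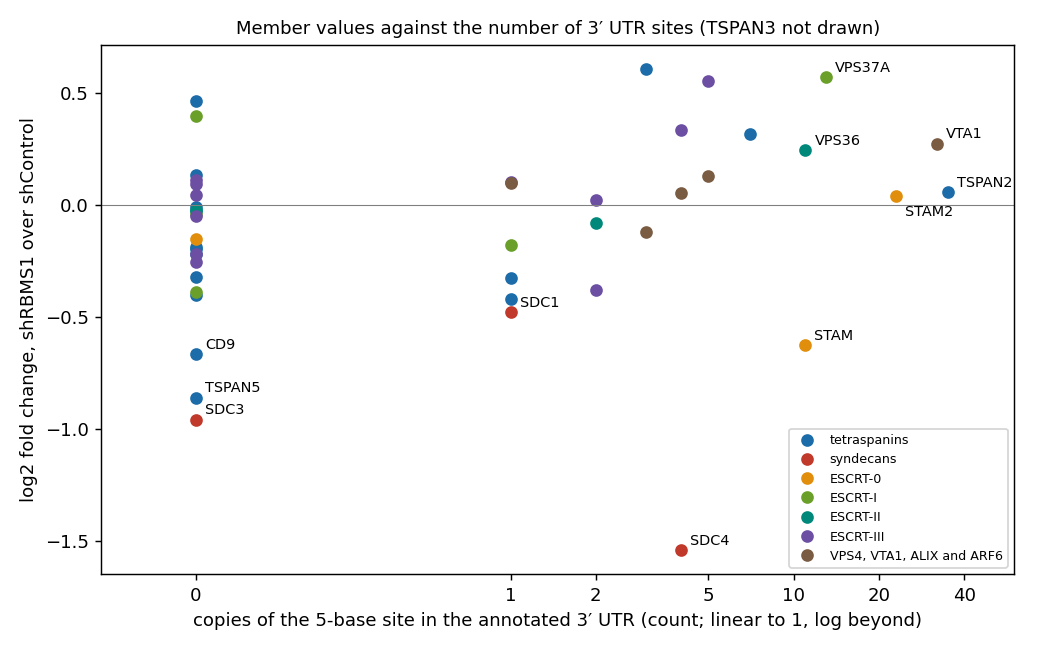
Log2 fold change of each member (vertical) against the number of copies of ATATA in its longest linked 3′ UTR (horizontal, linear to 1 and logarithmic beyond), coloured by role; TSPAN3, at −4.24 with 3 copies, is not drawn. The members with 23 or more copies lie between 0.042 and 0.27, and SDC4 with 4 copies lies lowest at −1.54.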

How the data were processed

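Total RNA of 3 libraries was sequenced, and 1 table was used, whose unit is the log2 fold change per RefSeq transcript as deposited by the authors (20104 transcripts). STAR 2.5, Cufflinks, Cuffdiff and the hg38 build are named in the submitters' processing notes, without roles or settings. Depth, filters and the division of reads between transcripts are not stated there. The header gives neither base nor direction: base 2 was taken because 20 transcripts lay 1 away (within 1.5e-05) from a repeated value, against 4 at ln 2 and 5 at log10 of 2, and the direction was set by RBMS1.

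RefSeq genes of GRCh38.p14 gave symbols to 98.6% of transcripts, 286 having none. Each gene took the median of its NM rows. GENCODE 29, through its RefSeq links, gave lengths, GC content and 3′ UTRs for 71 of the 74 member rows; a linked model can differ from the RefSeq transcript in its ends. Counts used 1 on the log2 scale. No test was run. The counting was tested on simulated data. Members, lists and rules were chosen with earlier results of these data known. Named were all members, RBMS1, SDCBP and the highest and lowest gene of each list; GPC4, ADAM10, ADAM17, CD48 and CDK4 were added after their values were seen. RBMS2 was at −0.57 from 1 row. Python 3.11.15, numpy 2.4.6 and pandas 2.3.3 were used.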

Additional observations from a re-analysis of the deposited data

How the results depend on the processing

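Leaving out a replicate was not run, since the ratio per transcript merges the libraries. With another value per gene (mean, least changed or longest NM transcript, or NM and NR rows together), with centring on the median of all genes, with only genes that have 1 NM row, or without NM rows beyond 6, the syndecan median kept its sign (−1.25 to −0.96), as did that of tetraspanins (−0.32 to −0.17); that of ESCRT-III changed sign in 2 of 7 settings (−0.0030 to 0.045). The syndecan median is the value of SDC3, which like SDC4 has 1 row, and both SDC1 rows lie above it and below 0. These settings could therefore not change its sign, and its constancy is no check. With genes of 1 NM row only, the medians moved to −1.25 for syndecans, −0.32 for tetraspanins and −0.18 for ESCRT-I, because fewer genes enter. Members lower by at least 1 became 1 (SDC4) with the least changed or the longest transcript, with 1 NM row only, and without rows beyond 6, and 1 (TSPAN3) at a threshold of 2. At a threshold of 0.5, 6 of 49 were lower and 3 higher, where 13.3% and 9.3% of all genes were. Members higher by at least 1 became 1 with the longest transcript and 6 when transcripts were counted. With the least changed or longest transcript, and without rows beyond 6, TSPAN3 turned to 0.18 and TGFBR3 to 1.80. IGF1R turned to 0.35 with the least changed transcript and without rows beyond 6, and with the least changed or longest transcript WASHC3 turned to 0.0064 and VPS26A to −0.35. SULF2 moved to −0.034 in the same 3 settings as TSPAN3. Of 328 member values under these settings, 324 moved by at most 0.58. Only the 15 members with several NM rows could move by more than the small shift of centring. Most of the 328 values were therefore fixed in advance, and the count says little about stability. All members that took the other sign are among these 15. Of the 49 members, 8 took the other sign in at least 1 setting: TSPAN3, TSPAN4 (0.58 with the mean), CD63 (up to 0.41), and with the least changed transcript CD151 (−0.31), VPS36 (−0.16), CHMP2A (−0.080), CHMP3 (−0.0030) and PDCD6IP (0.060). Depth is unknown, so how far low counts limit any single value was not tested.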
